A study of Homo sapiens with 60 samples.

Results

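The metabolic nuclear receptors are 10 genes that encode transcriptional regulators, most of them ligand-controlled, of bile acid, sterol, fatty acid and drug metabolism: NR1H4, NR0B2, NR1I2, NR1I3, NR1H2, NR1H3, PPARA, PPARD, RXRA and NR5A2. They were taken by symbol from the 60675 Ensembl gene identifiers of the table, and all 10 were found. All 10 also passed the filter on low counts, which left 16924 tested genes.

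RNA was sequenced in 60 libraries of HepG2, a human hepatocellular carcinoma line, after 24 h of treatment. The treated groups received a water extract of a multi-herb decoction, Yijin-tang (yijin) or Soshiho-tang (soshiho), or an ethanol extract of 1 herb. The single-herb extracts were Schisandrae Fructus (schisandra), Liriopis seu Ophiopogonis Tuber (liriope), Longan Arillus (longan), Zizyphi Semen (zizyphus), Polygalae Radix (polygala) and Aucklandiae Radix (aucklandia). Low, medium and high doses were 20, 100 and 500 µg/mL, except 10, 50 and 250 µg/mL for polygala and 11.2, 56 and 280 µg/mL for aucklandia. Each dose had 3 libraries for yijin, schisandra, liriope, longan and zizyphus, 2 for soshiho, and 1 for polygala and aucklandia. The 3 vehicle libraries received DMSO, at 0.1% in the sample labels and at 2% in the series text. HepG2 is 1 tumour line, and the labels do not say whether replicates were separate cultures, so each p-value reflects variation among the libraries at hand, which may be only technical.

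Most nuclear receptors of this group bind small lipophilic ligands and then switch sets of genes on or off, largely as heterodimers with a retinoid X receptor. In the liver, FXR (NR1H4) senses bile acids and induces SHP (NR0B2), a receptor without a DNA-binding domain that holds back bile acid synthesis, which LRH-1 (NR5A2) promotes. PXR (NR1I2) and CAR (NR1I3) sense drugs and plant compounds, LXR (NR1H2 and NR1H3) senses oxysterols, and PPAR alpha and delta (PPARA and PPARD) sense fatty acids.

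Each library held between 20.7 and 38.0 M expected counts. All 10 hepatocyte markers were detected in each of the 60 libraries, ALB at 3482 to 10180 CPM, a count divided by its library's scaled total. Of 10 markers of other cell types, HBB was at 0 in 60 libraries, KRT5 in 59, CD3E in 58, PTPRC in 56 and COL1A2 in 54. LYZ, a lysozyme gene, was the most abundant of them at 440.7 to 1706 CPM. Replicate 1 of low schisandra and replicate 2 of high liriope stood apart from their replicates, with a standard deviation of log2 differences of 0.284 and 0.250 against 0.0931 to 0.188 in the 52 other libraries. The vehicle libraries have a sample code shared with no treated library, so treatment and sample code cannot be told apart in any comparison with vehicle. The sample labels give a DMSO percentage for vehicle only, so a difference in solvent cannot be told apart from treatment there either. The 6 comparisons with vehicle also share the same 3 vehicle libraries.

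Per kilobase of annotated exon, SHP and FXR were the most abundant of the 10 receptors in vehicle. NR0B2 was at 34.6 ± 0.675 CPM per kilobase, NR1H4 at 11.7 ± 0.678 and RXRA at 10.6 ± 0.654 (SD, n = 3). PPARD followed at 9.69 ± 0.412, PPARA at 4.89 ± 0.108 and NR1H3 at 4.09 ± 0.242 CPM per kilobase. NR1H2 was at 3.52 ± 0.473, NR1I2 at 2.89 ± 0.168, NR1I3 at 0.197 ± 0.0585 and NR5A2 at 0.0900 ± 0.0131 CPM per kilobase. The vehicle libraries of RXRA and PPARD overlapped in this order, as did those of NR1H2 and NR1I2. The other 7 pairs of neighbours did not overlap. CAR and LRH-1 were close to the lower limit of detection, with 10 to 38 counts of NR1I3 and 7 to 29 counts of NR5A2 per library. Exons of NR1I3 overlap TOMM40L and exons of NR1H3 overlap ACP2, each on the other strand, and exons of NR1I2 overlap AC069444.2 on the same strand. The strand setting of the counting is not given in the sources used here, so these 3 levels may include reads of the neighbour.

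NR1H4, the bile acid receptor FXR, fell at the high dose of yijin, soshiho and schisandra, by 1.52-fold to 1.83-fold against the low dose, and was called in no other replicated extract at that comparison. High yijin had 28.8, 28.8 and 25.2 CPM against 42.3, 41.1 and 42.5 CPM in low yijin. High soshiho had 23.3 and 22.4 CPM against 42.0 and 41.4 CPM in low soshiho. High schisandra had 27.9, 26.4 and 29.4 CPM against 52.0, 43.0 and 37.2 CPM in low schisandra. In all 3 extracts every high-dose library was below every low-dose library and below the 3 vehicle libraries, which had 45.3, 41.0 and 41.2 CPM. The fall measured -0.61 ± 0.0652 on the log2 scale in yijin, -0.87 ± 0.0819 in soshiho and -0.66 ± 0.0647 in schisandra (± SE). Adjusted p-values from edgeR's quasi-likelihood test over all tested genes were 4.08e-09, 1.03e-10 and 3.77e-10. In bulk RNA, fewer cells of a type and less RNA per cell cannot be told apart.

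Most of the fall lay between the medium and the high dose. NR1H4 averaged 42.5 ± 2.46 CPM in vehicle and 42.0 ± 0.787, 41.3 ± 0.949 and 27.6 ± 2.12 CPM at low, medium and high yijin (SD, n = 3). In soshiho it averaged 41.7 ± 0.429, 37.1 ± 1.16 and 22.9 ± 0.662 CPM at low, medium and high dose (SD, n = 2). In schisandra it averaged 44.0 ± 7.46, 39.6 ± 1.09 and 27.9 ± 1.52 CPM (SD, n = 3). Low schisandra spread widely, from 37.2 to 52.0 CPM, and its highest library was replicate 1, the one that stood apart. Without replicate 1 the high vs low change in schisandra was -0.52 on the log2 scale, with an edgeR adjusted p of 9.24e-09. Over 14 alternative fits of this comparison the call was kept, with an adjusted p of at most 0.0314.

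**Figure D1:**
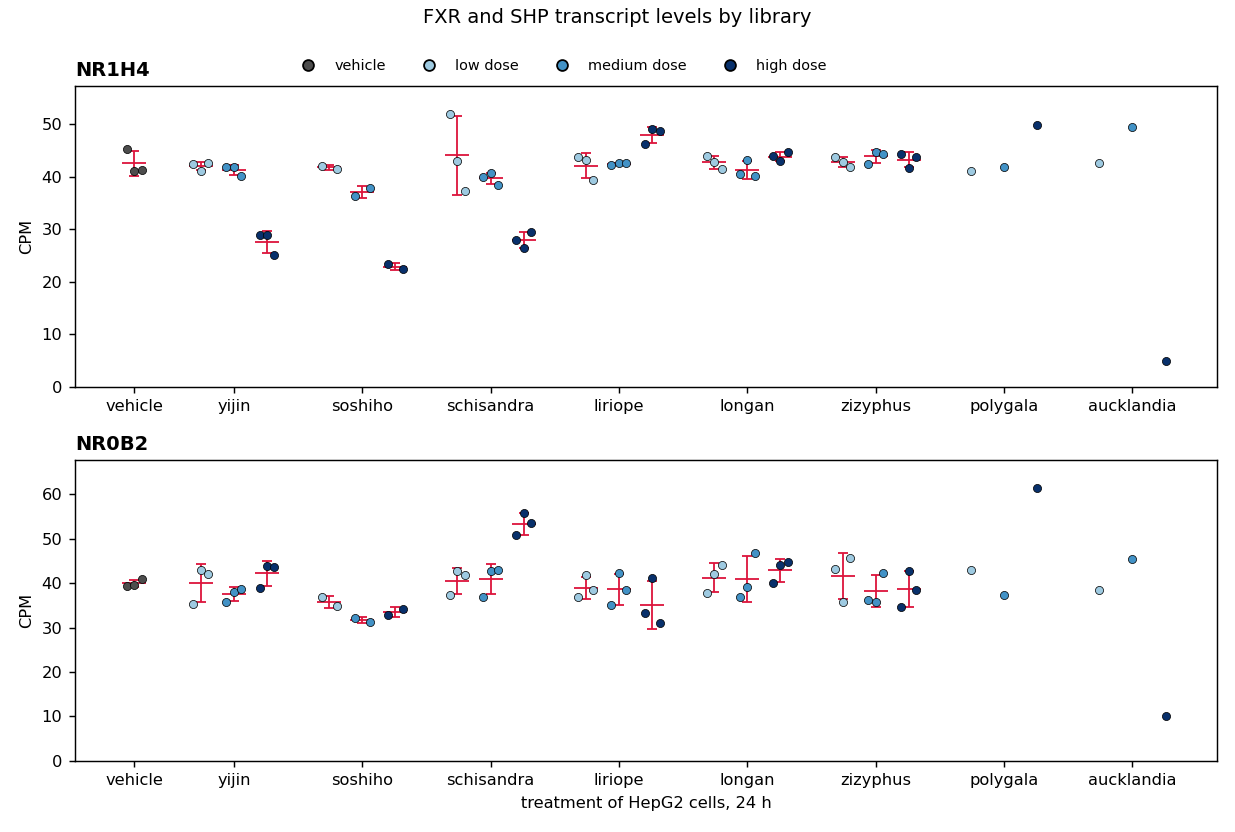
Levels of NR1H4 and NR0B2 in each library (CPM, vertical axis) for vehicle and for the low, medium and high dose of 8 extracts, left to right. Points are libraries and red bars are the mean ± SD of groups with 2 or 3 libraries; NR1H4 is low at the high dose of yijin, soshiho, schisandra and aucklandia, and NR0B2 is high at the high dose of schisandra and polygala and low at that of aucklandia.

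Against vehicle NR1H4 was lower at the same 3 high doses, by -0.62, -0.89 and -0.60 on the log2 scale for yijin, soshiho and schisandra (edgeR adjusted p = 1.3e-09, 2.44e-12 and 3.32e-09). High liriope went the other way, with 46.2, 49.0 and 48.7 CPM against 45.3, 41.0 and 41.2 CPM in vehicle. Its libraries were all above the vehicle libraries, and the change of 0.18 ± 0.0626 on the log2 scale had an edgeR adjusted p of 0.0435. That call was lost in 5 of the 6 fits that left out 1 library. Adjusted p was 0.0613, 0.127 and 0.112 without liriope high replicate 1, 2 or 3, and 0.190 and 0.170 without vehicle replicate 2 or 3. High longan averaged 43.8 ± 0.852 CPM and high zizyphus 43.2 ± 1.35 CPM, overlapping vehicle.

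The high vs low change of NR1H4 differed among the 6 replicated extracts by a test of the difference itself (F = 43.1, edgeR adjusted p = 2.41e-12). Of all tested genes, 5.52% passed that test, and 2 of the 10 receptors did, NR1H4 and NR0B2. The adjusted p of NR1H4 reached at most 4.89e-11 over 40 alternative fits. LYZ rose in the same 3 extracts, averaging 1634, 1539 and 1663 CPM at high yijin, soshiho and schisandra, against 1185, 1131 and 1243 CPM at low dose. The summed level of the 10 markers of other cell types was 1649 to 1737, 1566 to 1614 and 1658 to 1753 CPM at the high doses, against 1221 to 1231, 1157 to 1194 and 1159 to 1379 CPM at low dose. Markers that define leukocytes, red cells and squamous cells (PTPRC, CD3E, HBB and KRT5) were at or near 0 in every library. CD68, a macrophage marker, was at 14.15 to 71.02 CPM over the 60 libraries, and PECAM1, VWF and COL1A1 were detected in all of them at up to 6.506 CPM. CD68 also rose in schisandra, to 44.6 ± 3.09 CPM at high dose against 31.2 ± 1.54 CPM at low dose (SD, n = 3; edgeR adjusted p = 0.000232), and COL1A1 fell in soshiho, to 0.414 CPM at high dose against 0.963 CPM at low dose (edgeR adjusted p = 0.0441). The part of these markers in the result was not tested. The summed hepatocyte markers were 45210 to 46650, 41710 to 43470 and 49300 to 51980 CPM at high yijin, soshiho and schisandra, against 45880 to 50510, 47860 to 49280 and 48780 to 51840 CPM at low dose.

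NR1H4 lies on the forward strand at chr12:100473708-100564413 of GRCh38 (GENCODE 29). The promoter window that RefSeq gives for it (GRCh38.p14, forward strand, chr12:100503110-100503359) holds the 250 bases before a start site inside that gene body. It is shown because NR1H4 had the widest range of group means of the 10 receptors over the 19 groups with 2 or 3 libraries. That range was 2.10-fold, between high liriope and high soshiho.
NR1H4 promoter: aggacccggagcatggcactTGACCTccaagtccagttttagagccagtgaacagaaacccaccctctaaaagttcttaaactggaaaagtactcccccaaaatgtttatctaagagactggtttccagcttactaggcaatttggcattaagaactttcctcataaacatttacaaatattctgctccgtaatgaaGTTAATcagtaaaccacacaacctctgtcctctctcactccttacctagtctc
The first capitals are an AGGTCA nuclear receptor half-site, read on the reverse strand, whose outermost base is 230 bases before the start site. The second are a GTTAAT half-site of HNF1, a hepatocyte factor, 53 bases before it. Both strands were also searched for AAGGTCA, an extended half-site that holds the shorter one inside it, and for the dioxin response core GCGTG, and neither had a match in this window. Of 35116 promoter windows of 250 bases, the nuclear receptor half-site was in 12.1%, the extended one in 3.4%, the HNF1 half-site in 6.2% and the dioxin response core in 32.2%. Of the 10 receptors 9 had a window in the RefSeq table. A match is a description of letters, and nothing about a factor was measured there.

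NR0B2 (chr1:26911489-26913966, reverse strand), which encodes SHP, a corepressor induced by FXR in liver, was called higher at high schisandra in both comparisons and in no other replicated extract. High schisandra had 50.7, 55.7 and 53.5 CPM against 37.2, 42.7 and 41.8 CPM in low schisandra and 39.4, 39.7 and 40.8 CPM in vehicle. All 3 high-dose libraries were above all low-dose and vehicle libraries. The change was 0.40 ± 0.0944 on the log2 scale against the low dose (edgeR adjusted p = 0.00409) and 0.42 ± 0.0955 against vehicle (edgeR adjusted p = 0.00105). Without replicate 1 of low schisandra, the adjusted p of the first was 0.0626 with a change of 0.34, and the second was called in all 13 alternative fits. In high schisandra NR1H4 was lower and NR0B2 higher than at the low dose.

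In high yijin NR0B2 had 38.9, 43.9 and 43.7 CPM against 35.2, 43.0 and 42.0 CPM in low yijin, which overlapped. In soshiho it averaged 35.8 ± 1.36, 31.6 ± 0.660 and 33.5 ± 1.06 CPM at low, medium and high dose (SD, n = 2), with no call in either comparison. All 6 soshiho libraries were below the lowest vehicle library. The vehicle range of NR0B2 was narrow, 39.4 to 40.8 CPM. Of the 51 treated libraries in the replicated groups, 27 were below it and 23 above it, a count not made over all tested genes. The difference in high vs low change among the 6 extracts had an edgeR adjusted p of 0.0431 for NR0B2, and in 21 of 40 alternative fits it was above 0.05, up to 0.178.

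At the high vs low comparison, 2 of 10 receptors were called in yijin (NR1H4 and RXRA, both lower), where 7.79% of all tested genes were called. In soshiho 1 of 10 was called (NR1H4, lower), with 5.08% of all genes. In schisandra 2 of 10 were called (NR0B2 higher and NR1H4 lower), with 7.33% of all genes. No receptor was called in liriope, longan or zizyphus by edgeR, where 0.0295%, 0.0177% and 0.0355% of all genes were called. At an unadjusted p under 0.05, 1 receptor passed in liriope (NR1H4), 1 in longan (NR1I2) and 0 in zizyphus. How many of all tested genes passed that unadjusted threshold is not given, so this count does not set the receptors apart from them. DESeq2 called 0 receptors in each of these extracts. With so few receptors called, the shares of called receptors are not a result about the group as a whole. Scaling by library size alone in place of TMM, the share of higher calls among all genes was 35.9% against 48.6% in yijin, 44.1% against 55.3% in soshiho and 29.1% against 53.5% in schisandra.

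**Figure D2:**
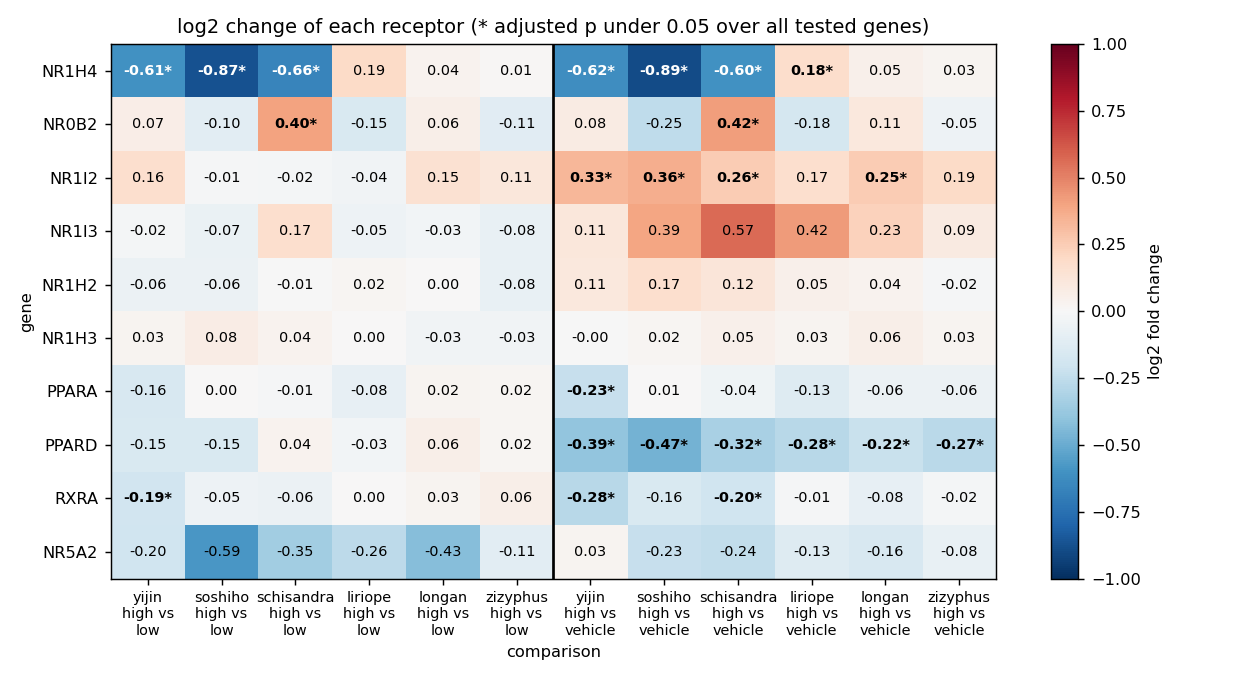
Heat map of the log2 change of each of the 10 receptors (rows) in 12 comparisons (columns), high against low dose on the left and high dose against vehicle on the right, coloured from -1 to 1. Bold values with a star had an adjusted p under 0.05 over all tested genes: NR1H4 carries the largest falls, and PPARD is starred in all 6 comparisons with vehicle and in none with the low dose.

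Against vehicle, 5 of 10 receptors were called in yijin (23.4% of all genes), 3 in soshiho (21.8%) and 5 in schisandra (22.1%). In liriope 2 of 10 were called (16.8% of all genes), in longan 2 (19.6%) and in zizyphus 1 (16.9%). With library size alone, the share of higher calls among all genes was 77.4% to 88.4% in these 6 comparisons, against 47.7% to 51% with TMM, and the median log2 change of all genes was 0.098 to 0.126.

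RXRA (chr9:134317098-134440585, forward strand), the shared heterodimer partner, fell in high yijin. High yijin had 96.7, 98.5 and 96.1 CPM against 111, 111 and 109 CPM in low yijin and 110, 118 and 125 CPM in vehicle. Every high-dose library was below every low-dose and vehicle library. The change was -0.19 ± 0.0529 on the log2 scale against the low dose (edgeR adjusted p = 0.0148) and -0.28 ± 0.0529 against vehicle (edgeR adjusted p = 9.5e-05). The call against the low dose was lost without yijin high replicate 1 or 3 (adjusted p = 0.0507 and 0.0602) and without yijin low replicate 1 or 2 (0.0516 and 0.0559). The call against vehicle was kept in all 13 alternative fits.

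RXRA was also lower in high schisandra than in vehicle, at 99.5, 99.4 and 108 CPM against 110, 118 and 125 CPM (log2 change -0.20 ± 0.0529, edgeR adjusted p = 0.0049). With library size alone that change was -0.11 and its adjusted p 0.204. High soshiho, with 106 and 105 CPM, lay below vehicle too, at -0.16 ± 0.0594 on the log2 scale and an edgeR adjusted p of 0.0545. In liriope, longan and zizyphus the log2 changes of RXRA lay between -0.08 and 0.06 in both comparisons and none was called. The high vs low change of RXRA was not called different among extracts (edgeR adjusted p = 0.223).

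NR1I2 (chr3:119780484-119818485, forward strand), the drug sensor PXR, was higher against vehicle in 4 of 6 extracts and in no extract against the low dose. High yijin had 18.5, 21.0 and 19.1 CPM, high soshiho 20.9 and 19.01 CPM, against 15.4, 14.8 and 16.6 CPM in vehicle. High schisandra had 17.0, 19.4 and 19.4 CPM and high longan 18.4, 18.9 and 18.2 CPM. All of these libraries were above the 3 vehicle libraries. The log2 changes were 0.33 ± 0.0703, 0.36 ± 0.0787, 0.26 ± 0.0710 and 0.25 ± 0.0708 for yijin, soshiho, schisandra and longan (edgeR adjusted p = 0.000375, 0.000608, 0.0065 and 0.00853). The soshiho call was lost without its high replicate 2 (adjusted p = 0.0533), and the schisandra and longan calls without vehicle replicate 2 (0.0526 and 0.0609).

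The higher level of NR1I2 was present at the low dose as well. Of the 51 treated libraries in the replicated groups, 46 were above the highest vehicle library and 0 below the lowest. Those above were 13 of 17 at the low dose, 16 of 17 at the medium dose and 17 of 17 at the high dose. The same count was not made over all tested genes, so it does not set NR1I2 apart from them. NR1I2 averaged 16.3 to 20.1 CPM over the 6 low-dose groups, and 17.5 to 20.0 CPM over the 6 high-dose groups. High vs low changes ran from -0.04 to 0.16 on the log2 scale. Because vehicle differs from all treated libraries in sample code, an extract effect and a code effect on NR1I2 cannot be told apart.

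NR1I3 (chr1:161229666-161238302, reverse strand), the related drug sensor CAR, was called in none of the 12 comparisons. Its largest change was 0.57 ± 0.331 on the log2 scale in high schisandra against vehicle (edgeR adjusted p = 0.236), with 0.902, 1.17 and 0.796 CPM in high schisandra against 0.444, 0.827 and 0.685 CPM in vehicle. The groups overlapped.

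NR1H2 (chr19:50329653-50382982, forward strand) and NR1H3 (chr11:47248300-47269032, forward strand), which encode LXR beta and LXR alpha, were called in none of the 12 comparisons either. Over the 54 libraries NR1H2 lay between 11.2 and 15.4 CPM and NR1H3 between 16.0 and 21.2 CPM. Log2 changes ran from -0.08 to 0.17 for NR1H2 and from -0.03 to 0.08 for NR1H3, with standard errors of 0.0714 to 0.0964.

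PPARD (chr6:35342558-35428191, forward strand), a fatty acid receptor, was lower than in vehicle in each of the 51 treated libraries of the replicated groups. They held 28.9 to 40.3 CPM with a median of 34.8, against 41.3, 43.2 and 45.0 CPM in vehicle, and the groups did not overlap. How many of all tested genes separate from vehicle this way was not counted. In the 6 high vs vehicle comparisons, 16.8% to 23.4% of all tested genes were called. High yijin had 32.8, 33.9 and 31.9 CPM and high soshiho 30.3 and 31.9 CPM. PPARD was called lower in all 6 high vs vehicle comparisons, from -0.22 ± 0.0675 on the log2 scale in longan to -0.47 ± 0.0775 in soshiho (edgeR adjusted p = 0.0154 and 9.55e-06). The pattern did not extend to high aucklandia, a single library, at 45.5 CPM with a 95% interval of counting error of 42.7 to 48.4 CPM. Low and medium aucklandia had 36.0 and 32.9 CPM. Polygala had 34.8, 35.5 and 30.1 CPM at low, medium and high dose, with 1 library each.

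Between high and low dose PPARD was called in 0 of 6 extracts by edgeR and in 0 by DESeq2. In yijin alone it passed an unadjusted 0.05 threshold, at a log2 change of -0.15. Median levels over the 17 libraries of each dose were 35.5, 35.2 and 34.2 CPM at low, medium and high dose. With library size alone, the PPARD call against vehicle was lost in liriope, longan and zizyphus (adjusted p = 0.05, 0.311 and 0.126) and kept in yijin, soshiho and schisandra. The longan call was also lost without vehicle replicate 3 (0.0592) or longan high replicate 2 (0.0680). As for NR1I2, treatment and sample code cannot be told apart.

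PPARA (chr22:46150521-46243756, forward strand), the fatty acid receptor that drives hepatic fat oxidation, fell against vehicle in high yijin. It had 54.8, 52.8 and 57.7 CPM in high yijin against 64.6, 63.3 and 66.2 CPM in vehicle and 64.2, 61.0 and 59.2 CPM in low yijin. All high-dose libraries were below all others of those groups. The log2 change was -0.23 ± 0.0543 against vehicle (edgeR adjusted p = 0.00129) and -0.16 ± 0.0543 against the low dose (edgeR adjusted p = 0.0568). With library size alone the first was -0.13, with an adjusted p of 0.104. Of the 51 treated libraries 39 were below the lowest vehicle library and 3 above the highest, a count not made over all tested genes.

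NR5A2 (chr1:200027602-200177424, forward strand), which encodes LRH-1, was called in none of the 12 comparisons. It was lower at high than at low dose in each of the 6 extracts by its mean, with log2 changes of -0.11 to -0.59 and standard errors of 0.311 to 0.391, and the smallest adjusted p was 0.545. High soshiho had 0.885 and 0.284 CPM against 0.694 and 1.06 CPM in low soshiho, which overlapped.

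**Figure D3:**
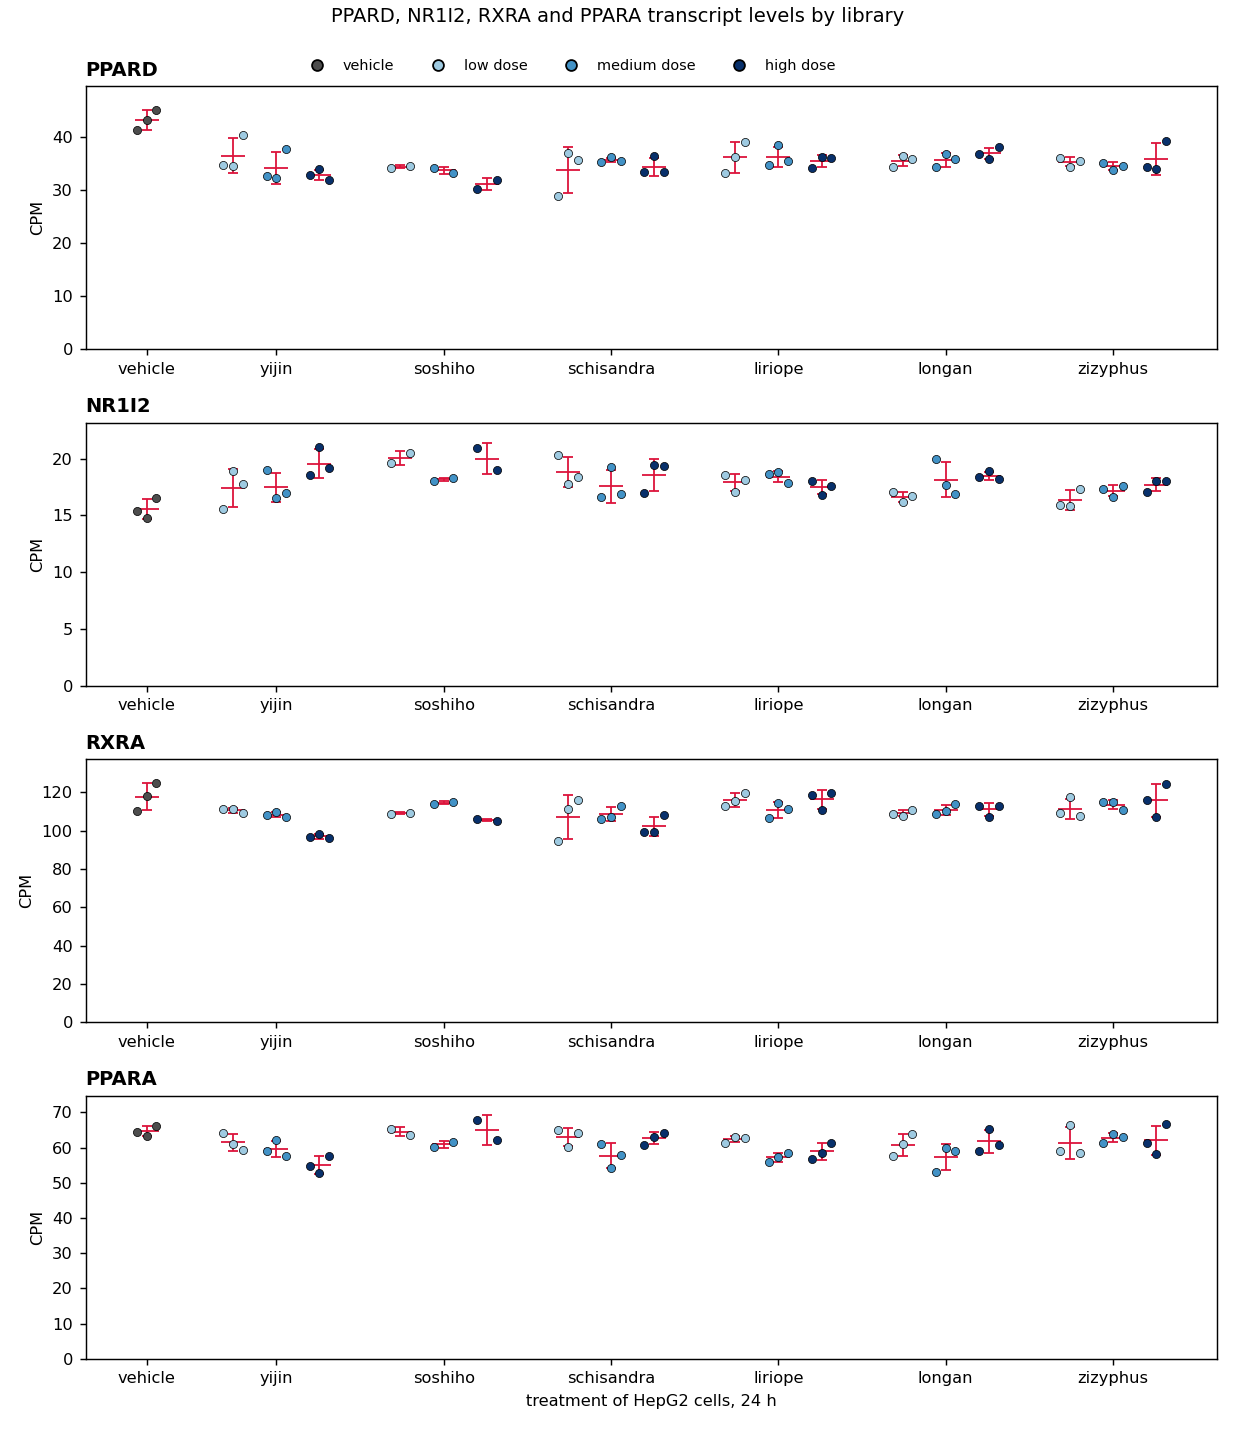
Levels of PPARD, NR1I2, RXRA and PPARA in each library (CPM, vertical axes) for vehicle and for the low, medium and high dose of the 6 replicated extracts. Points are libraries and red bars are the mean ± SD; all 51 treated libraries are below the vehicle libraries for PPARD, and 46 of them are above the vehicle libraries for NR1I2.

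Polygala and aucklandia had 1 library per dose, so their differences have no replicate check and no test. They are given as differences of log2(CPM + 1), which understates the change of low genes, and 95% Clopper-Pearson intervals cover counting error only. High aucklandia was the library with the lowest CPM of NR1H4, NR0B2, NR1I2, PPARA and RXRA among all 60. NR1H4 had 42.6, 49.5 and 4.85 CPM at low, medium and high aucklandia, the last from 105 counts with an interval of 3.96 to 5.87 CPM. NR0B2 had 38.4, 45.4 and 10.2 CPM, and NR1I2 had 17.1, 16.4 and 3.97 CPM. In these 3 the medium dose stayed near or above the low dose, and the low value was that of the high dose.

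High against low aucklandia, 5 of 10 receptors were past 1.5-fold lower (NR1H4, NR0B2, NR1I2, PPARA and RXRA) and 1 higher (NR1H2), where 36.7% of all tested genes were past 1.5-fold. The log2 differences were -2.90 for NR1H4, -1.82 for NR0B2, -1.87 for NR1I2, -0.95 for PPARA and -0.80 for RXRA. NR1H2 had 26.8 CPM at high and 14.2 CPM at low dose, a difference of 0.87. Against vehicle the same 6 receptors were past 1.5-fold, with 36.4% of all genes.

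Polygala differed from aucklandia in NR1H4 and NR0B2. NR1H4 had 41.0, 41.8 and 49.8 CPM at low, medium and high polygala, and NR0B2 had 42.9, 37.4 and 61.5 CPM. The high-dose intervals were 47.0 to 52.7 CPM for NR1H4 and 58.4 to 64.7 CPM for NR0B2. NR1I2 had 17.9, 14.8 and 8.03 CPM and PPARA 60.6, 62.1 and 33.0 CPM, both lower at the high dose as in aucklandia. RXRA had 117, 131 and 152 CPM at low, medium and high polygala, against 113, 104 and 64.9 CPM at the same steps of aucklandia. The doses of the 2 extracts differ, and these differences were not tested.

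In high against low polygala, 2 of the 10 receptors were past 1.5-fold lower (NR1I2, -1.06, and PPARA, -0.86), with 31.1% of all genes. Against vehicle NR0B2 was past it as well, higher by 0.61 on the log2 scale, with 32.6% of all genes. With library size alone, 67.6% against 46.2% of the genes past 1.5-fold were higher in high than in low polygala, 73.1% against 47.6% in high polygala than in vehicle, and 64.3% against 50.5% in high aucklandia than in vehicle. The summed hepatocyte markers were 18890 CPM at high polygala and 23800 CPM at high aucklandia, against 48690 and 46700 CPM at their low doses and 50400 to 54680 CPM in vehicle. The part of these lower marker sums in the receptor differences was not tested.

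**Figure D4:**
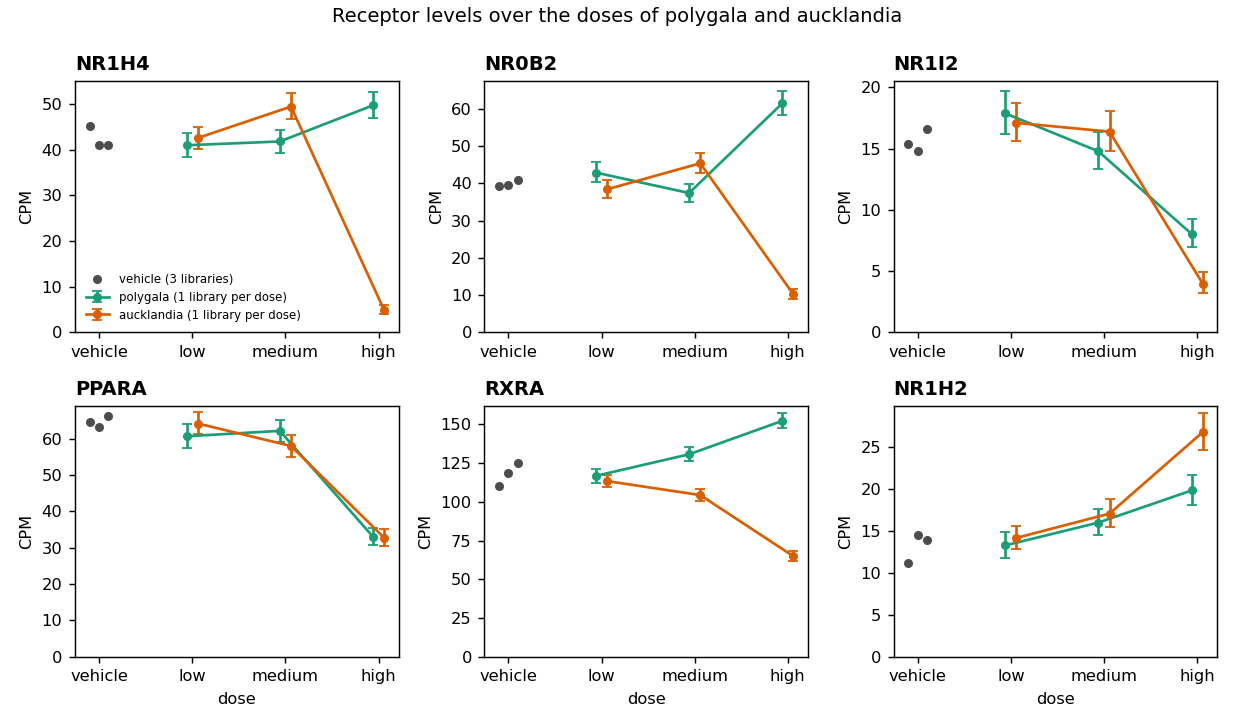
Levels of 6 receptors (CPM, vertical axes) in the 3 vehicle libraries and over the low, medium and high doses of polygala and aucklandia, with 95% Clopper-Pearson intervals of counting error. NR1H4 and NR0B2 end at 4.85 and 10.2 CPM in high aucklandia and at 49.8 and 61.5 CPM in high polygala, while NR1I2 and PPARA are lower at the high dose of both.

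The genes these receptors are known to control were counted in lists of known targets at the high vs low comparison. Of 10 tested FXR targets, 1 rose and 3 fell in yijin, and 0 rose and 4 fell in soshiho. In schisandra 1 rose and 2 fell. Of all tested genes, 7.79%, 5.08% and 7.33% were called in these 3 extracts. NR0B2, which FXR induces and which was called higher in schisandra, is not in this list and is counted with the receptors. Without soshiho high replicate 2 the 4 falls in soshiho became 2, with adjusted p = 0.12 for SLC51B and 0.265 for SULT2A1, and in yijin 2 or 3 fell when 1 library was left out. The list medians were -0.109, 0.065 and -0.081 on the log2 scale, against -0.003, -0.002 and -0.006 over all tested genes, so in soshiho the median was above 0 although each called target fell. KNG1, which encodes kininogen, fell in all 3. KNG1 averaged 2.47 ± 0.326 CPM in high yijin and 5.23 ± 0.554 CPM in low yijin, a log2 change of -1.08 ± 0.126 (SD, n = 3; edgeR adjusted p = 2.71e-08). KNG1 changed by -1.16 in soshiho and -0.65 in schisandra. SULT2A1, a bile acid sulfotransferase, averaged 73.3 ± 1.67 CPM in high yijin and 103 ± 3.94 CPM in low yijin, a log2 change of -0.50 (edgeR adjusted p = 2.03e-07). BAAT was the target that rose in yijin, averaging 5.93 ± 0.286 CPM in high yijin and 3.7 ± 0.206 CPM in low yijin. Its log2 change was 0.67 (edgeR adjusted p = 0.00103). SLC51A, a subunit of the basolateral bile acid exporter, rose in schisandra, to 6.71 ± 0.862 CPM in high schisandra against 3.41 ± 0.812 CPM in low schisandra.

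Of the 9 enzymes of bile acid synthesis, all were tested, and 0 rose and 1 fell in yijin (CYP27A1), 0 were called in soshiho, and 0 rose and 2 fell in schisandra, with list medians of -0.077, -0.008 and -0.038. The CYP27A1 call was lost in each of the 6 fits without 1 yijin library (adjusted p = 0.0559 to 0.151). In schisandra 1 fell in place of 2 without schisandra high replicate 1 or low replicate 1. All tested genes were called at 7.79%, 5.08% and 7.33% in these 3 extracts. HSD17B4, a peroxisomal side-chain enzyme, averaged 152 ± 6.55 CPM in high schisandra and 174 ± 10.4 CPM in low schisandra. CYP7A1, the rate-limiting enzyme, was at 0.358 to 0.576 CPM in the high-dose groups of yijin, soshiho and schisandra and was not called.

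LXR targets were 8 tested genes, of which NR1H3 is itself a member of the receptor group. In yijin 0 rose and 1 fell, in soshiho 0 rose and 3 fell, and in schisandra 0 were called, against 7.79%, 5.08% and 7.33% of all tested genes, with list medians of -0.071, -0.181 and -0.071. In soshiho 1 fell in place of 3 in each of the 4 fits without 1 soshiho library, where MYLIP and ABCG8 were not called (adjusted p = 0.0604 to 0.466). In schisandra 1 fell without schisandra low replicate 1. SREBF1, the master regulator of fatty acid synthesis, averaged 111 ± 3.19 CPM in high yijin and 141 ± 4.57 CPM in low yijin (log2 change -0.35, edgeR adjusted p = 3.31e-05). In soshiho it averaged 96.9 ± 1.22 CPM at high and 130 ± 4.23 CPM at low dose (log2 change -0.43, edgeR adjusted p = 3.23e-05).

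PPAR targets, 17 tested genes of fatty acid oxidation and lipid droplets, moved both ways. In yijin 4 rose and 1 fell, in soshiho 5 rose and 2 fell, and in schisandra 4 rose and 2 fell, with list medians of -0.027, 0.105 and -0.012. The share called among all tested genes was 7.79%, 5.08% and 7.33%. The rises became 2 in yijin without yijin high replicate 2 and 3 in soshiho without soshiho low replicate 3, and the falls in soshiho became 1 without soshiho high replicate 3 or low replicate 3. CPT1A, the carnitine palmitoyltransferase that admits fatty acids to mitochondria, averaged 76.7 ± 8.05 CPM in high soshiho and 51.5 ± 0.404 CPM in low soshiho. Its log2 change was 0.57 in soshiho, 0.47 in schisandra and 0.30 in yijin. The yijin call was lost without yijin low replicate 1 or 2 (adjusted p = 0.0699 and 0.102) and without yijin high replicate 2 or 3 (0.0735 and 0.0565). ACSL1, an acyl-CoA synthetase, fell in all 3, by -0.24, -0.40 and -0.30 on the log2 scale in yijin, soshiho and schisandra. Scaled by library size alone, 3 rose and 2 fell in yijin, and 4 rose and 5 fell in schisandra.

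PXR and CAR targets had 11 tested genes. In yijin 4 rose and 2 fell, in soshiho 4 rose and 1 fell, and in schisandra 4 rose and 2 fell, with list medians of 0.281, 0.062 and 0.092, beside 7.79%, 5.08% and 7.33% of all tested genes called. In soshiho 3 rose in each of the 4 fits without 1 library, and 0 fell without soshiho high replicate 2 or 3 or low replicate 3. Scaled by library size alone, 4 rose and 4 fell in yijin, and 3 rose and 2 fell in soshiho. ABCC2, an exporter of conjugates into bile, averaged 458 ± 9.90, 518 ± 16.4 and 465 ± 7.75 CPM at high yijin, soshiho and schisandra, against 315 ± 8.46, 348 ± 3.60 and 329 ± 11.1 CPM at low dose. Its log2 changes were 0.54, 0.57 and 0.50 (edgeR adjusted p = 1.38e-11, 4.55e-10 and 6.05e-11). ABCC3, a basolateral exporter, also rose in all 3, by 0.28, 0.60 and 0.35 on the log2 scale. GSTA1, a glutathione transferase, fell in yijin and schisandra, by -0.52 and -0.57. The classic CYP3A4 and CYP2B6 did not pass the filter on low counts.

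LRH-1 targets had 8 tested genes, with 3 lower in yijin, 0 called in soshiho and 2 higher in schisandra, APOM and PLK3, and with list medians of -0.094, -0.025 and 0.081, beside 7.79%, 5.08% and 7.33% of all tested genes called. The 3 in yijin became 0 without yijin high replicate 1 (adjusted p = 0.0636 for CEL, 0.113 for APOA1 and 0.159 for CYP19A1), and 1 without yijin low replicate 2 or high replicate 3. APOM, an apolipoprotein of HDL, averaged 88.2 ± 1.27 CPM in high schisandra and 62.9 ± 8.78 CPM in low schisandra (log2 change 0.49, edgeR adjusted p = 0.00224). In liriope, longan and zizyphus, 0 of the tested genes in these 6 lists were called high against low, where 0.0295%, 0.0177% and 0.0355% of all tested genes were.

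The coregulators that receptors recruit had 18 tested genes, with 0 higher and 2 lower in yijin, 0 and 1 in soshiho, and 1 and 0 in schisandra, and with list medians of -0.075, -0.011 and -0.024, beside 7.79%, 5.08% and 7.33% of all tested genes called. In yijin 1 was lower without yijin high replicate 1 or 3 or low replicate 1 or 2. NCOA3, a coactivator, averaged 124 ± 3.23 CPM in high soshiho and 158 ± 1.57 CPM in low soshiho (log2 change -0.36, edgeR adjusted p = 0.000896). PPARGC1A, the coactivator PGC-1 alpha, averaged 22.7 ± 1.05 CPM in high schisandra and 17.6 ± 1.40 CPM in low schisandra (log2 change 0.37, edgeR adjusted p = 0.00508). Against vehicle, 7 to 12 of the 18 were lower in each of the 6 extracts and 0 to 2 higher, where 16.8% to 23.4% of all tested genes were called in either direction. Without vehicle replicate 1 the lower count was 5 in place of 10 in liriope and 7 in place of 11 in longan. It was also 7 in place of 11 in longan without longan high replicate 1 and in schisandra without schisandra high replicate 3. Those lower in all 6 included NCOA1, NCOA2, NCOA6, CREBBP and EP300. Scaled by library size alone, 4 to 8 were lower and 1 to 4 higher, with 4 each way in zizyphus, and 3 of the genes (NCOA1, NCOA6 and CREBBP) were lower in all 6.

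Of 25 tested other nuclear receptors, 1 rose and 4 fell in yijin, 1 rose and 3 fell in soshiho, and 2 rose and 4 fell in schisandra, with list medians of -0.106, -0.042 and -0.018, beside 7.79%, 5.08% and 7.33% of all tested genes called. The 4 falls in yijin became 1 without yijin high replicate 1, and 2 without yijin low replicate 1 or 2 or high replicate 2 or 3. The 3 falls in soshiho became 1 without soshiho high replicate 2 or low replicate 3. In schisandra the 4 falls became 2 without schisandra low replicate 1, and the 2 rises became 1 without schisandra high replicate 2 or 3 or low replicate 3. PPARG, the adipogenic PPAR, rose in all 3, averaging 13.8 ± 0.363, 15.3 ± 0.598 and 13.5 ± 0.448 CPM at high yijin, soshiho and schisandra against 10.9 ± 0.788, 11.3 ± 0.172 and 10.9 ± 1.05 CPM at low dose. Its log2 changes were 0.33, 0.43 and 0.31 (edgeR adjusted p = 0.00301, 0.00168 and 0.00474). THRB, a thyroid hormone receptor, and NR2F2, the orphan receptor COUP-TFII, were called lower in all 3. In yijin, soshiho and schisandra the log2 changes were -0.18, -0.34 and -0.24 for THRB. For NR2F2 they were -0.25, -0.32 and -0.25. The yijin call of THRB was lost in each fit without 1 yijin library (edgeR adjusted p = 0.0806 to 0.177). HNF4A, a main driver of hepatocyte genes, averaged 412, 482 and 407 CPM at the 3 high doses against 403, 436 and 388 CPM at low dose and was not called. In a fit of the high and low schisandra libraries alone, 132 genes were called in place of 1240. The schisandra calls of KNG1, SULT2A1, HSD17B4, ACSL1, ABCC3, GSTA1, PLK3, PPARGC1A, PPARG, THRB and NR2F2 were lost there (adjusted p = 0.0553 to 0.3).

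Over the 19 replicated groups, the genes with the most similar pattern to NR1H4 were GPAM, C1orf115 and DTX4 (Pearson r = 0.972, 0.967 and 0.958 of group mean log2 CPM, among 10723 genes of at least 5 CPM). For NR0B2 they were WNK4, POFUT2 and GPT2 (0.917 each). For PPARD they were MYRF, NAA60 and CASKIN2 (0.945, 0.929 and 0.928), and for RXRA KANK4, FSCN1 and CLDN19 (0.909, 0.891 and 0.883). NR1I2 was most like MRPS25 (0.821), PPARA most like FOXO3 (0.823). The remaining 4 receptors had a highest r of 0.773 or less. All points share the same groups and the vehicle libraries, and r is given as a description only.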

How the data were processed

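RNA-seq libraries of HepG2 were read from the deposited table of expected counts, which the authors made with FastQC 0.11.9, Trim Galore 0.6.5, STAR 2.7.3a and RSEM 1.3.3 on hg38, per the submitters' processing notes. RSEM shares reads between genes, and 10.4% of the deposited values had a fraction, so counts were rounded to whole numbers. The annotation release and strand setting are not given in the sources used here. Members, lists and tests were chosen with earlier results of these data known. Symbols came from a name table and positions from GENCODE 29.

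The 54 libraries of 19 groups with 2 or 3 libraries entered 1 edgeR 4.0.16 model under R 4.3.3 (TMM, filterByExpr, quasi-likelihood F test), and called at a Benjamini-Hochberg adjusted p under 0.05 in each comparison. The fit was also run on data simulated from its own mean levels and spread, which cannot check those assumptions. Comparisons were high against low dose, high dose against vehicle, and the difference in change among 6 extracts. CPM use TMM over all 60 libraries. Polygala and aucklandia had no test. Alternatives were other scalings, no filter, DESeq2 1.42.0, a replicate block, fewer libraries and leave-one-out. All 10 members are named, up to 5 called genes of each list per extract with the smallest p (a part of them in the text), and 3 most similar genes per receptor. Coregulators named against vehicle and CYP7A1 and HNF4A were chosen after their values were seen. Totals of 20.7 to 38.0 M counts set the precision.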

Additional observations from a re-analysis of the deposited data

Results flagged for a closer look

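NR1H4 and NR0B2 changed by different amounts between high and low dose in the 6 replicated extracts, by a test of the difference itself. For NR1H4 the edgeR adjusted p was 2.41e-12, with log2 changes of -0.61 in yijin, -0.87 in soshiho, -0.66 in schisandra, 0.19 in liriope, 0.04 in longan and 0.01 in zizyphus. It was lower in every high-dose library of the first 3 extracts. For NR0B2 the edgeR adjusted p was 0.0431, with log2 changes of 0.07, -0.10, 0.40, -0.15, 0.06 and -0.11 in the same order of extracts, and the call did not hold in 21 of 40 alternative fits. Why they differ was not tested.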

How the results depend on the processing

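Each alternative changed 1 choice. Of the values for named genes, 1463 kept direction and side of the threshold, 178 lost a call, 25 gained one and 1 changed sign: NR1H2 in high yijin against vehicle, uncalled, was -0.005 without vehicle replicate 1 and ranged up to 0.182 in the fits without 1 library. High vs low NR1H4 calls in yijin, soshiho and schisandra held in all alternatives run. With no filter, yijin high vs low had 1 receptor, liriope high vs vehicle 1, and 207, 63 and 79 genes were called high vs low in liriope, longan and zizyphus and 1481 in the test among extracts. With only the libraries of the 2 groups, high vs low gave 1707 genes in soshiho, 132 in schisandra and 0 in liriope and zizyphus, and high vs vehicle gave 361 genes and 0 receptors in liriope and 1618 genes in zizyphus. DESeq2 gave 14, 5 and 11 genes high vs low in liriope, longan and zizyphus. Without the 2 outlying libraries, an alternative chosen after seeing the data, high vs low gave 731 genes in schisandra and 15 in zizyphus, and high vs vehicle 2 receptors in zizyphus. The replicate block gave 1398 genes in yijin and 8 in liriope high vs low, and 5 receptors in soshiho high vs vehicle, and within sample code sets 9 genes in liriope and 11 in zizyphus. Within sample code sets the block also gave 1595 genes in yijin, 1041 in soshiho and 1643 in schisandra high vs low. Without a block these were 1318, 860 and 1240, and longan had 3 either way. Correlations of deviations between libraries of the same replicate number ran from -0.577 to 0.639 over 34 pairs, and 0 of 12 comparisons had all above 0.1. With 2 or 3 libraries per group these correlations cannot exclude pairing by replicate number. At 2-fold, polygala had 1 receptor and 1797 genes against low dose and 0 and 2018 against vehicle, and aucklandia 3 and 2682, and 3 and 2676. With library size alone polygala had 5 receptors in both comparisons. Leaving out 1 library, high vs low gave 836 to 1030 genes and 1 to 2 receptors in yijin, 454 to 496 genes in soshiho, 615 to 1825 and 1 to 2 in schisandra, and 2 to 6, 0 to 2 and 3 to 7 genes in liriope, longan and zizyphus. High vs vehicle gave 3130 to 3412 genes in yijin, 2018 to 3238 and 2 to 4 receptors in soshiho, 2673 to 3328 and 4 to 5 in schisandra, 2012 to 3188 and 1 to 2 in liriope, 2048 to 2992 and 1 to 2 in longan, and 1867 to 2687 and 1 to 2 in zizyphus. The test among extracts gave 747 to 1203 genes and 1 to 2 receptors. The cause of these shifts was not tested. Where soshiho kept 1 library, it was assumed to vary like the other groups. Medium-dose libraries, used in no comparison, were not left out. Low counts limit NR1I3 and NR5A2.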
